A study of Mus musculus with 21 samples.

Results

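Defensins are short secreted peptides that are rich in cysteine and disrupt the membranes of bacteria, fungi and enveloped viruses. The alpha-defensins of mice are stored in granules of Paneth cells at the base of the intestinal crypts, where the protease Mmp7 (matrilysin) cuts them to their active form. The beta-defensins are made by epithelia, and many of them are made in the epididymis, where they coat sperm. The defensin genes were taken by symbol from the gene expression table of the study, as all genes whose symbol starts with Defa or Defb (no older Defcr symbol occurs there). The rule found 71 of 37620 genes, 29 with an alpha symbol and 42 with a beta symbol.

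RNA-seq was made from germ cells enriched by collagenase and trypsin digestion of testes from wild-type C57BL/6J (B6) males at 12 dpp (days post-partum), when the first germ cells are in early meiosis. There are 12 libraries, 3 for each of the sample numbers 186wt, 343wt, 444wt and 456wt. All 4 numbers share the strain, the age and the labelled cell type (spermatocytes), and no treatment separates them. RNA was taken from 4 replicates of enriched cells, as many as there are sample numbers, so the 3 libraries of a number appear to be repeats of 1 RNA. The p-values measure the spread between libraries, which may be technical, and not the spread between animals.

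Values are FPKM, fragment counts scaled to the length of the transcript and to the reads mapped in the library. They can be compared between genes of different length, but transcripts shorter than a sequenced fragment can yield few fragments. A sample number is represented by the average of its 3 libraries, and each mean ± SD covers the 4 sample numbers.

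A block of 3 neighbouring beta-defensin genes held nearly all defensin transcripts of the preparation. Defb19 was at 614 ± 216 FPKM (SD, n = 4), Defb36 at 137 ± 42.6 FPKM and Defb45 at 7.95 ± 2.08 FPKM. The other 68 members together summed to 3.13 FPKM, and 48 members were listed at 0 in all 12 libraries. The coding sequences of Defb19 and Defb36 follow, because these genes carry most of the signal of the family, with that of Defb28, which was seen almost only in 456wt. They are from the GENCODE M1 protein-coding transcripts of NCBI build 37, run 5′ to 3′ from start to stop codon, and have the codons for cysteine in capitals.
Defb19: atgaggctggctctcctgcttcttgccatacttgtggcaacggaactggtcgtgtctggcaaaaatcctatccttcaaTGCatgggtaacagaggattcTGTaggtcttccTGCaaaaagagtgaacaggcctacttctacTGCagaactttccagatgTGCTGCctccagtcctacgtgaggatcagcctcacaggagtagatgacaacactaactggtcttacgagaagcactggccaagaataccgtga
Defb36: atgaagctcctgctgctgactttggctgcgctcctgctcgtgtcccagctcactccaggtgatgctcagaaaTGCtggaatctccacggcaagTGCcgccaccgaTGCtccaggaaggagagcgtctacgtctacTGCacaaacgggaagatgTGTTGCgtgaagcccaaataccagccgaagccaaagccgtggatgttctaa
Defb28: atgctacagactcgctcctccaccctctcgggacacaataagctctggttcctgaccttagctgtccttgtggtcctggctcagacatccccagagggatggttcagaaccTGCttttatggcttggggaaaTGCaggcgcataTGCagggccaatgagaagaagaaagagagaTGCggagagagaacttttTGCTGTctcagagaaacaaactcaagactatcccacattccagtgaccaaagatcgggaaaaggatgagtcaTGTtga

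The 6 cysteine codons that pair into the 3 disulfide bonds of the beta-defensin fold are all present in Defb19 and Defb36, where they are separated by 6, 3, 9, 5 and 0 codons, so that the last of them stand side by side. Defb21, the low neighbour of Defb19 at 0.0333 ± 0.0386 FPKM, has the same spacing, which is found in 15 of the 41 beta-defensin genes with a coding transcript. Defb28 has it too, with a further cysteine codon before its stop codon. The coding sequences are 252 bases in Defb19, 204 in Defb36, 303 in Defb21 and 270 in Defb28. In pairwise alignments Defb19, Defb36 and Defb21 were 63.5% to 67.8% identical.

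This sequence distance bears on the counting, because the authors' software divides a read among transcripts that it matches equally well. The longest exact stretch that a transcript shared with a coding transcript of another gene was 18 bases in Defb19 and 26 in Defb36. Reads were 100 bases long and those with 2 or more mismatches were removed, so a read that matched both transcripts would need a longer exact stretch than these. The alpha-defensins differ in this respect. Of 12 alpha-defensin genes with a coding transcript, 6 shared a stretch of 100 bases or more with another defensin (median of the longest stretch 122 bases, range 51 to 377), and single values of such genes would be uncertain. Defb2 shared 102 bases with Defb11.

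The family was largely silent in these cells. Only 3 members (4.23%) had a mean of at least 1 FPKM, against 38.1% of all 37620 genes. A further 6 were from 0.1 to under 1 FPKM, which brought the members at or above 0.1 FPKM to 9 (12.7%, against 55.3% of all genes). Counted in each sample number alone, 9 members were at or above 0.1 FPKM in 186wt, 10 in 343wt, 11 in 444wt and 13 in 456wt. The 48 members listed at 0 in every library were 67.6% of the family, against 27.7% of all genes. Some of these 48 have transcripts shorter than the mean fragment of 280 bp, such as Defa-ps10 (171 bp) and Defb46 (174 bp). Such genes can yield few fragments, so their 0 says less, although Defb47 (240 bp) was seen in 8 libraries. Among protein-coding genes alone, 3 of 53 defensins reached 1 FPKM, against 58.7% of 22337 genes.

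The alpha-defensins contributed no measurable transcript. Of their 29 genes, 28 were at 0 in all 12 libraries, and the pseudogene Defa-ps18 had 0.06 FPKM in 1 library, an estimated 0.269 of a fragment. The markers of the cells that make alpha-defensins were low as well. Of 7 Paneth and goblet cell genes, Itln1 and Pla2g2a were at 0 in every library, and only Tff3, a secreted peptide of goblet cells, was above 0.1 FPKM (0.103 ± 0.0732 FPKM). The alpha-defensin protease Mmp7 was at 0.00583 ± 0.0117 FPKM. All 9 members at or above 0.1 FPKM were beta-defensins, of which 20 of 42 were at 0 in every library.

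**Figure D1:**
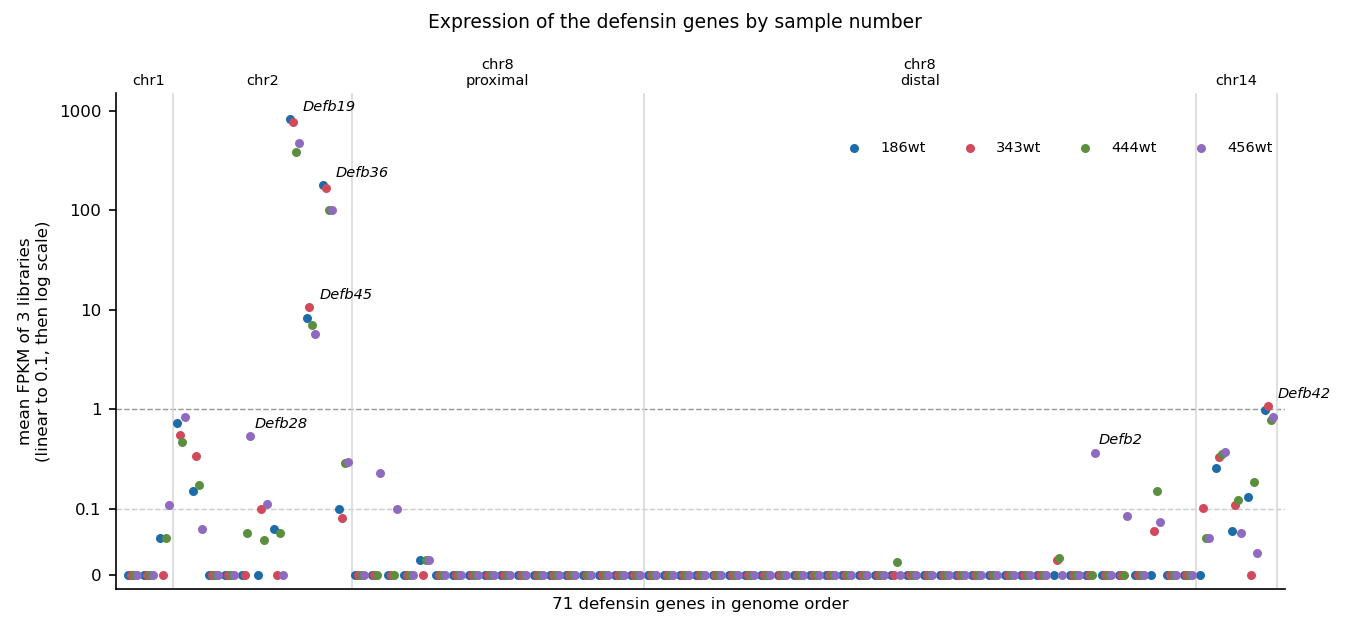
Mean FPKM of the 3 libraries of each sample number (y axis, linear to 0.1 FPKM and logarithmic above) for the 71 defensin genes in genome order (x axis), with dashed lines at 0.1 and 1 FPKM. Defb19, Defb36 and Defb45 on chromosome 2 stand above all others. No member of the 2 groups on chromosome 8 averaged 0.1 FPKM or more over the 4 sample numbers, although single points, such as Defb2 in 456wt (0.367 FPKM), lie above that line.

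Levels differed between the places where defensin genes lie. Defensin genes form 5 groups on NCBI build 37. The group of chromosome 2, from 152284791 to 152448789, holds 11 beta-defensins within 164 kb, and 7 of them were at or above 0.1 FPKM. It summed to 760.6 FPKM of the 762.4 FPKM of the whole family. The 18 members of the proximal group of chromosome 8 summed to 0.1 FPKM and the 34 of its distal group to 0.207 FPKM, with no member of either at or above 0.1 FPKM. The 3 members of chromosome 1 summed to 0.0558 FPKM. Of the 5 members of chromosome 14, which summed to 1.49 FPKM, only Defb42 and Defb47 were at or above 0.1 FPKM.

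Within the group of chromosome 2, the 3 high members are consecutive genes that span 36.6 kb. Defb19 (ENSMUSG00000050645) lies on the minus strand from 152401822 to 152406048, and Defb45 (ENSMUSG00000062124) follows 12.9 kb away on the same strand from 152418927 to 152425135. Defb36 (ENSMUSG00000044863) begins 4.93 kb further on, on the plus strand from 152430063 to 152438465, so that Defb45 and Defb36 are transcribed away from each other. Each of the 3 has 2 exons in its longest transcript. The change in level at the ends of the block was abrupt. Defb21, whose gene ends 1.14 kb from Defb19, had a signal in 2 of 12 libraries (0.21 and 0.19 FPKM, about 1 fragment each). On the other side Defb25, 9.63 kb from Defb36, was at 0.193 ± 0.115 FPKM. A pseudogene inside Defb36 on the same strand, Gm14163, was at 0.489 ± 0.229 FPKM and was not part of the comparison of coding transcripts. Genes that are not defensins flank the group, and among them Sox12 was at 31.0 ± 2.75 FPKM on one side and Rem1 at 4.11 ± 2.07 FPKM and H13 at 38.5 ± 2.05 FPKM on the other.

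**Figure D2:**
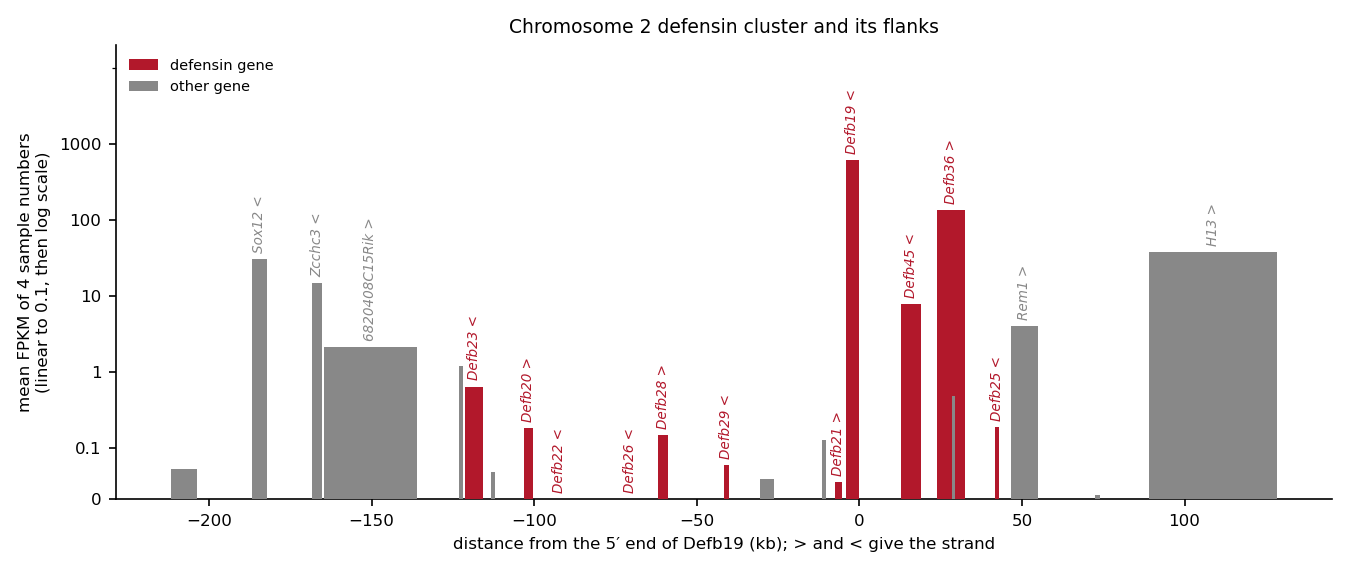
Mean FPKM over 4 sample numbers (y axis, linear to 0.1 FPKM and logarithmic above) of the defensin genes of chromosome 2 (red) and of other genes there (grey), against the distance from the 5′ end of Defb19 in kb (x axis). Bars have the width of the gene (at least 1.2 kb), and > and < give its strand. Defb19, Defb45 and Defb36 stand side by side between members below 0.2 FPKM.

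The RefSeq promoters of the outward-facing pair Defb45 and Defb36 are shown because both genes were high. The table covers 250 bases before to 50 after the start, on GRCm38.p6, and its coordinates are not those of build 37. It matched 32 of the 71 members with 33 promoters, and Defb19 was not matched. The promoter of Defb36 is chr2:152604077-152604376 on the plus strand, and that of Defb45 is chr2:152596436-152596735 on the minus strand. By its distance from that of Defb36, the RefSeq start of Defb45 lies inside the gene as placed by GENCODE M1. The stretch shown for Defb45 is therefore not the one before the 5′ end of that gene on build 37.
Defb36 promoter: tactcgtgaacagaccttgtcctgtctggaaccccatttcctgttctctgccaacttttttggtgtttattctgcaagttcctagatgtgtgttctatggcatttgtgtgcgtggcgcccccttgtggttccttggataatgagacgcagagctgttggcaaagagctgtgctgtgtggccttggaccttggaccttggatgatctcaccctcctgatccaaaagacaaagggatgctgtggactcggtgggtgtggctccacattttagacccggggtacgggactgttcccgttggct
Defb45 promoter: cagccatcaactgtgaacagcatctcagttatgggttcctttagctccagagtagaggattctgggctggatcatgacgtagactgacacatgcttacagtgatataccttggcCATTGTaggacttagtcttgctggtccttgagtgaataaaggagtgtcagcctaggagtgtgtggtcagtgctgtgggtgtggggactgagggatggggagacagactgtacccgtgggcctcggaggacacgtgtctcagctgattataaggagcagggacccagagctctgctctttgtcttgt

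Both promoters were searched on both strands for the TATA box word TATAAA, the GATA factor word AGATAA, the NR5A1 word AAGGTCA and the SOX factor word ACAATG. None of these words contains another. Defb36 held none of the 4. Defb45 held ACAATG once, read on the minus strand, in the stretch in capitals. That word was in 9.09% of the defensin promoters and in 12.6% of all 32851 promoters of the same length. TATAAA was in 27.3% of the defensin promoters and in 13.6% of all, AGATAA in 15.2% and 11.2%, and AAGGTCA in 12.1% and 4.72%. The CG dinucleotide occurred 8 times in the Defb36 promoter and 4 times in that of Defb45. The median was 1 in the defensin promoters and 7 in all. These counts describe letters and carry no test.

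Defb19 ranked 53 of all genes by mean FPKM, above 99.9% of them, and made up 80.6% of the summed FPKM of the family. In 186wt its 3 libraries were at 825, 849.6 and 804 FPKM, in 343wt at 765, 768 and 775, in 444wt at 393, 391 and 371, and in 456wt at 483, 478 and 471. The libraries of 186wt and 343wt were above those of 456wt, which were above those of 444wt, and no 2 numbers overlapped. The mean of 186wt was 2.15-fold that of 444wt. Within a number the SD was 0.652% to 3.15% of the mean, while 1786 to 4654 estimated fragments per library give a counting error of 1.47% to 2.37%.

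Defb36 ranked 441 and made up 18% of the family. In 186wt its 3 libraries were at 181, 179 and 177 FPKM, in 343wt at 168, 165 and 172, in 444wt at 100.1, 92.9 and 109.7, and in 456wt at 97.7, 101.2 and 100.9. It was high in 186wt and 343wt and low in 444wt and 456wt, whose libraries overlapped. The Defb19 to Defb36 ratio was 3.38 to 4.21 in the libraries of 444wt and 4.50 to 4.94 in the other libraries, so the level of Defb19 was lower in 444wt also relative to its neighbour.

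Defb45 ranked 9011 and made up 1.04% of the family. In 186wt its 3 libraries were at 9.79, 5.76 and 9.41 FPKM, in 343wt at 12.1, 9.90 and 10.01, in 444wt at 6.85, 8.50 and 5.82, and in 456wt at 7.63, 5.85 and 3.83. Only 343wt, whose 3 libraries were the highest, did not overlap the other numbers. The SD within a number was 11.4% to 33.0% of its mean.

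**Figure D3:**
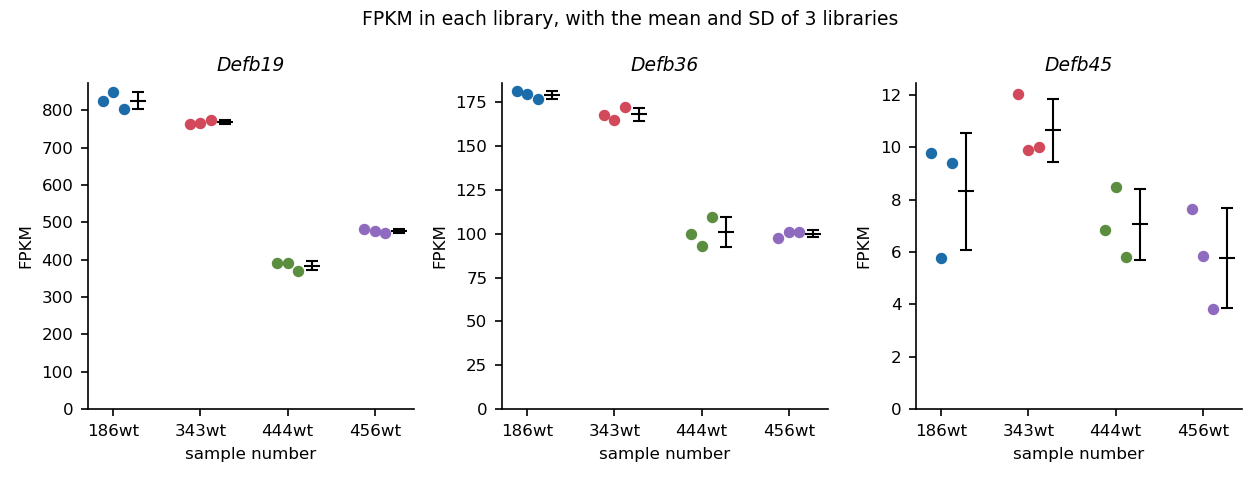
FPKM of Defb19, Defb36 and Defb45 (y axes, from 0) in each library (points) of the 4 sample numbers (x axes), with the mean and SD of 3 libraries in black. Defb19 and Defb36 have tight libraries that are higher in 186wt and 343wt, and those of Defb45 scatter more.

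Differences between sample numbers were tested with limma on log2(FPKM + 0.1) for the 20795 genes that averaged 0.1 FPKM or more, with Benjamini-Hochberg adjustment over all of them. The test called 58.2% of these genes at an adjusted p under 0.05, so a call was the common outcome. It called 4 of the 9 members that entered it. Among these 4 is Defb28, which passed the filter only through 456wt, where it was high, so its call is not independent of the filter. The number of members called was 2 without 456wt. The other 62 members were too low to enter. The log2 range, the highest minus the lowest of the 4 numbers on this scale, was 1.10 in Defb19 (adjusted p = 2.51e-11), 0.84 in Defb36 (adjusted p = 2.32e-08) and 0.92 in Defb45 (adjusted p = 0.0429). Defb28 was called as well (adjusted p = 0.000768), but 2 of its numbers were at 0, so the size of its range is set by the pseudocount (2.65 with 0.1, 0.62 with 1 and 5.75 with 0.01) and is no fold. The median range over all tested genes was 0.55. The call of Defb45 was lost when 1 library was left out in 9 of 12 cases, among them the highest library of 343wt (adjusted p = 0.122) and the lowest of 456wt (adjusted p = 0.0794), and without 343wt (adjusted p = 0.279) or 456wt (adjusted p = 0.0845).

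Taking the numbers in pairs, with limma contrasts adjusted over all tested genes, Defb19 differed in all 6 pairs. Its smallest difference was between 186wt and 343wt, at 0.10 ± 0.02 (SE) on the log2 scale (adjusted p = 0.00996), where 20.4% of all genes were called. This call was lost when the variance prior had no trend with expression (adjusted p = 0.0698). It was 1.10 ± 0.02 higher in 186wt than in 444wt, where 42.4% of all genes were called, and 0.31 ± 0.02 lower in 444wt than in 456wt, where 28.2% were. It differed likewise between 186wt and 456wt, 343wt and 444wt, and 343wt and 456wt, where 41.4%, 47.9% and 41.7% of all genes were called. Defb36 differed in 4 pairs. The difference of its neighbours in order was 0.09 ± 0.05 between 186wt and 343wt (adjusted p = 0.203) and 0.01 ± 0.05 between 444wt and 456wt (adjusted p = 0.905). The libraries of 186wt and 343wt did not overlap, although their difference did not pass the test. Defb45 differed only between 343wt and 456wt, by 0.92 ± 0.25 (adjusted p = 0.0121).

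The preparation held other cells of the testis beside germ cells, and among these the Sertoli cell markers moved with the high defensins. All 11 genes of a meiotic prophase list in the table (of 12) were above 1 FPKM, led by Syce2 at 77.9 ± 17.5 FPKM and Sycp3 at 73.1 ± 18.1 FPKM, both parts of the synaptonemal complex. So were the 13 genes of a list of Sertoli cells, the somatic nurse cells of the seminiferous tubule (of 14), led by Clu, a secreted chaperone, at 1844 ± 574 FPKM and Aard at 580.4 ± 174 FPKM. No Sertoli marker was at 0 in these libraries. In bulk RNA, fewer cells of a type and less RNA per cell cannot be told apart.

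The summed FPKM of the Sertoli list was 4849.7 to 4876 in the libraries of 186wt, 5021 to 5051 in 343wt, 2816 to 2833 in 444wt and 2983 to 3018 in 456wt. All 13 genes were called by the same limma test, where 58.2% of all tested genes were called. Of the 13 genes, 6 had their highest mean in 186wt and 7 in 343wt. From 444wt to 343wt the 13 genes were higher by a median log2 difference of 0.75 (0.42 to 0.93, 13 of 13 higher). The shares of all tested genes with these directions are not given, so the counts alone do not set the Sertoli list apart. From 444wt to 343wt Defb19 was higher by 1.00, Defb36 by 0.74 and Defb45 by 0.60. The meiotic list had a median of -0.71 in that contrast, with 0 of 11 genes higher. It did not run against the defensins in every pair. From 456wt to 186wt Defb19 was higher by 0.79 and Defb36 by 0.84. There 13 of 13 Sertoli genes were higher (median 0.74), and so were 9 of 11 meiotic genes (median 0.16). From 343wt to 186wt Defb19 was higher by 0.10, with 11 of 11 meiotic genes higher (median 0.49) and 6 of 13 Sertoli genes. Measured relative to the mean log2 level of the Sertoli list, the range over the 4 numbers was 0.46 instead of 1.10 in Defb19, 0.19 instead of 0.84 in Defb36 and 0.43 instead of 0.92 in Defb45. A list of 7 Leydig cell genes summed to 172 to 173 FPKM in the libraries of 343wt and 114 to 120 in 186wt. It summed to 100 to 105 FPKM in 456wt and 57.45 to 58.25 in 444wt. Much of these sums was Nr5a1, at 60.65 FPKM in 186wt, 61.72 in 343wt, 41.87 in 444wt and 42.54 in 456wt. The order of the sums of 186wt and 456wt depends on Nr5a1. Between 186wt and 456wt the genes of the list went both ways, with Star at 13.8 and 7.13 FPKM and Insl3 at 9.24 and 15.9 FPKM. The peritubular myoid cells of the tubule wall did not follow the defensins. Their 6 listed genes were highest in 456wt and summed to 406 to 407 FPKM in the libraries of 343wt, 806 to 810.5 in 186wt, 989 to 1016 in 444wt and 1629 to 1654 in 456wt. The part of Sertoli or Leydig cells in the difference between sample numbers was not tested.

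**Figure D4:**
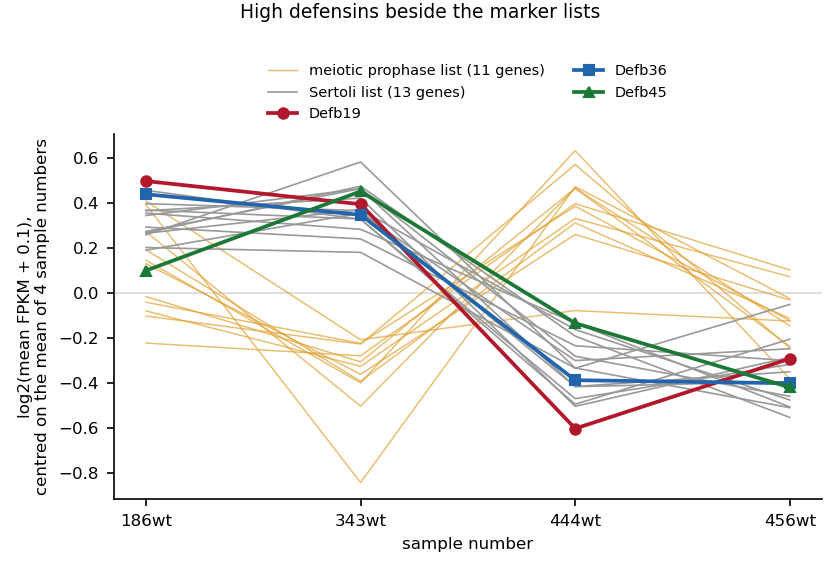
Log2(mean FPKM + 0.1) centred on the mean of the 4 sample numbers (y axis) by sample number (x axis), for Defb19, Defb36 and Defb45 (thick lines), the 13 genes of the Sertoli list (grey) and the 11 of the meiotic prophase list (orange). Defb19, Defb36 and the 13 Sertoli genes had higher means in 186wt and 343wt than in 444wt and 456wt, while Defb45 passed the test only between 343wt and 456wt.

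The genes whose levels over the 4 numbers were most like those of Defb19, by the root mean square of the difference between centred log2 levels among 14347 genes of at least 1 FPKM, were Gpd1 (0.0432), Slc6a14 (0.0483), Slc25a21 (0.0484), Serpina3a (0.0552) and Hist2h2aa1 (0.0561). Gpd1 encodes a glycerol-3-phosphate dehydrogenase, Slc6a14 an amino acid transporter, Slc25a21 a mitochondrial carrier, Serpina3a a serpin and Hist2h2aa1 a histone H2A. Their means ran from 2.11 to 20.2 FPKM, far below that of Defb19. With 4 numbers such a ranking is loose. At most 1 of the 5 names was kept when any 1 number was left out. In the same order the Sertoli gene Cst12 was at place 25, Clu at 31, Fshr at 60 and Cldn11 at 88, while Defb36 was at 124 and Defb45 at 1753.

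The 6 members of the middle class had means from 0.1 to under 1 FPKM. Defb42 (chromosome 14, 63665828 to 63676986, plus strand) was the highest of them at 0.926 ± 0.135 FPKM, with a signal in all 12 libraries (0.50 to 1.42 FPKM). Its means in 186wt, 343wt, 444wt and 456wt were 0.983, 1.09, 0.787 and 0.847 FPKM, and it lay just under the bound of 1 FPKM. It overlaps Defb30 on the opposite strand (0.0883 FPKM), and without a stated strand setting the reads of both cannot be told apart. It also shared stretches of up to 62 bases with other transcripts. No difference between numbers passed the test (adjusted p = 0.578).

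Defb23, at the far end of the chromosome 2 group, was at 0.648 ± 0.163 FPKM, also in all 12 libraries (0.11 to 1.18 FPKM) and with about 65.9 estimated fragments in all. Its libraries in 343wt alone covered the whole range. The test gave an adjusted p of 0.389, and of 0.0348 without the first library of 343wt. Defb47, Defb25 and Defb20 were seen in 8, 7 and 9 of 12 libraries. Their means were 0.330 ± 0.0504, 0.193 ± 0.115 and 0.184 ± 0.115 FPKM, and their adjusted p-values were 0.745, 0.335 and 0.172. In Defb20 these values rest on about 22.0 fragments and in Defb25 on about 8.01 over the 12 libraries.

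Defb28 (chromosome 2, 152343991 to 152347183, plus strand) was the exception among the low members. It was at 0.40, 0.61 and 0.60 FPKM in the libraries of 456wt, at 0.19 FPKM in 1 library of 444wt and at 0 in the other 8. This makes about 7.95 fragments in 456wt and 0.982 in 444wt. By limma it was higher in 456wt than in 444wt by 2.14 ± 0.45 (SE) on the log2 scale (adjusted p = 0.00395), with 2 of 3 libraries of 444wt at 0, and no fold is given against the numbers at 0. The 6 libraries of 186wt and 343wt, all at 0, have no spread. The call of the comparison over all numbers held in the 15 of 16 refits without a library or a number that it could enter, and without 456wt its mean of 0.0211 FPKM was too low to be tested. Defb28 entered the test only through 456wt, which all 15 refits kept, so they are no check of the call.

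Among the 14 members above 0 but below 0.1 FPKM, 4 members of chromosome 8 were seen in 456wt alone. The share of all low genes seen in 456wt alone is not given, so this count does not set the defensins apart. Defb2 (chromosome 8, 22950398 to 22953954, plus strand) was at 0.55, 0.28 and 0.27 FPKM in 456wt, about 3.91 fragments, and at 0 in the other 9 libraries. Defb37, Defb38 and Defb9 were each above 0 in 1 library of 456wt, at 0.69, 0.30 and 0.27 FPKM, an estimated 3.02, 0.974 and 0.971 fragments. None of these was in the test. With every gene above 0 tested, Defb2 had an adjusted p of 1.56e-05, which rests on libraries at 0 that have no spread. The other low members had means up to 0.187 FPKM in single numbers, and where a fragment could be assigned a value they came to at most 5.91 fragments in all.

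Some epididymal and neutrophil markers were also highest in 456wt, while others of the same lists were not. Of the epididymis list of 12 genes, Lcn9, Lcn10, Lcn12 and Rnase10 were at 0 in every library, and 4 genes were tested, of which Crisp1 and Lcn5 were called with 456wt highest. Both reached the mean of 0.1 FPKM needed for the test only through 456wt, so the filter had set which number was highest. Crisp1, a sperm-coating protein of the epididymis, was at 0.660 FPKM in 456wt and 0 to 0.05 FPKM in the other numbers, and Lcn5, an epididymal lipocalin, at 0.620 FPKM and 0. The summed level of the list was 2.03 to 2.97 FPKM in the libraries of 456wt and 1.17 to 2.38 FPKM in the others. Its highest gene, Cst11 at 1.36 ± 0.342 FPKM, was not called by limma (adjusted p = 0.0512) and was lowest in 456wt, at 1.01 FPKM against 1.71 in 186wt. Adam28 was not called either (adjusted p = 0.848), with its highest mean in 444wt (0.153 FPKM) and its lowest in 456wt (0.110 FPKM). Below the filter, Lcn8 was seen in 444wt alone and Adam7 in 456wt alone. Of the macrophage and neutrophil list, 9 of 11 genes in the table were called, 5 with 343wt highest (Csf1r, Cd68, Emr1, Cd163 and Lyz2) and 4 with 456wt highest (Ptprc, S100a8, S100a9 and Ngp). The neutrophil genes S100a8, S100a9 and Ngp were at 1.90, 2.17 and 1.25 FPKM in 456wt and at most 0.0967 FPKM elsewhere, so they too entered the test only through 456wt. Elane, a neutrophil protease, averaged 0.0767 FPKM in 444wt, above its 0.0533 FPKM in 456wt. The summed level of this list was 24.3 to 27.6 FPKM in 456wt, 25.0 to 25.5 in 343wt and 5.87 to 11.4 in the others. The part of epididymal or blood cells in the signals of Defb28 and Defb2 was not tested.

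**Figure D5:**
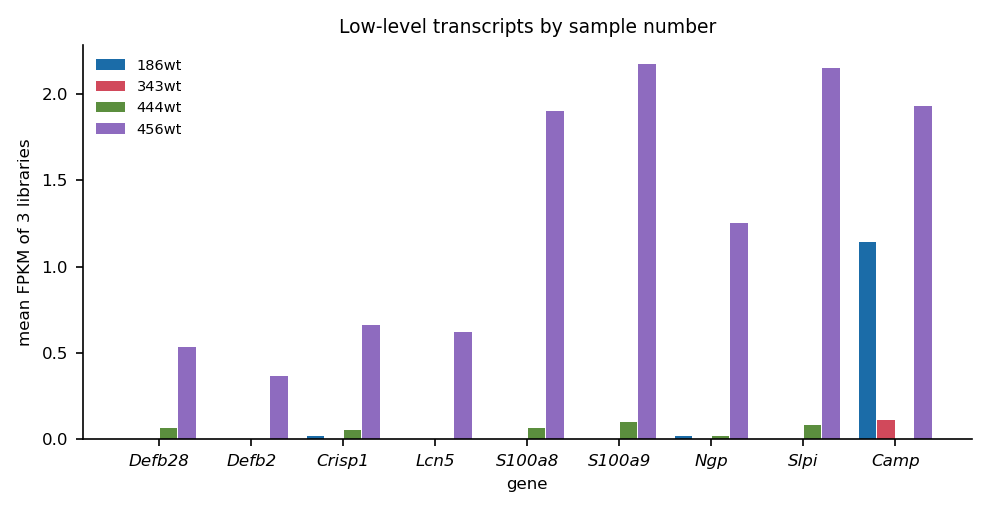
Mean FPKM of 3 libraries (y axis, from 0) by sample number (colours) for Defb28, Defb2 and 7 genes of the epididymis, neutrophil and antimicrobial lists that were highest in 456wt (x axis), chosen for display after their values were seen. In 456wt Defb28 was at 0.537 FPKM and Defb2 at 0.367 FPKM, beside Slpi at 2.15 FPKM and Camp at 1.93 FPKM. Camp was also at 1.14 FPKM in 186wt.

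The lists overlap in part, since Lyz2, S100a8, S100a9, Ngp and Cst11 are also on the next one. Of 25 genes of other antimicrobial proteins, 14 entered the test and 10 were called, where 58.2% of all tested genes were called. Of the 10 called, 8 were highest in 456wt, and a share of all genes highest there is not given. The other 11 genes were below 0.1 FPKM. The highest was Lyz2, a lysozyme of macrophages, at 8.005 ± 4.84 FPKM (highest in 343wt at 13.4 FPKM and lowest in 444wt at 2.62 FPKM). Chga, whose product is cut into antimicrobial peptides, was at 7.68 ± 1.13 FPKM, and Lbp, which binds bacterial lipopolysaccharide, at 5.89 ± 3.54 FPKM. Wfdc2 at 1.61 ± 0.219 FPKM and Cst11 were not called. Camp, the mouse cathelicidin, averaged 1.93 FPKM in 456wt and 1.14 FPKM in 186wt, against 0.113 FPKM in 343wt and 0 in 444wt. Slpi, a secreted protease inhibitor of epithelia and neutrophils, was at 2.15 FPKM in 456wt and at most 0.0833 FPKM elsewhere. Like S100a8, S100a9 and Ngp, it entered the test only through 456wt. The number called was 4 without 456wt. Spag11a and Spag11b, epididymal genes related to the defensins, were at 0.06 and 0.00667 FPKM.

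Of 18 genes for the processing of defensins, their receptors and the signalling around them, 13 entered the test and 8 were called. This is near the 58.2% called among all tested genes and sets the list apart in no way. The highest were general ones, namely the proteases Mmp14 at 58.8 ± 7.004 FPKM and Furin at 45.4 ± 8.27 FPKM, the NF-kB subunits Rela at 47.5 ± 5.66 FPKM and Nfkb1 at 13.5 ± 1.69 FPKM, and the basic helix-loop-helix factor Tcf4 at 15.4 ± 0.931 FPKM. Their log2 ranges were 0.21 to 0.54, below the 1.10 of Defb19. Ccr6, the receptor through which beta-defensins attract immune cells, was at 0.00500 FPKM, and its ligand Ccl20 was at 0. The number called was 5 without 444wt.

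The remaining marker lists describe the other cells of the preparation. All 7 Leydig cell genes were called with 343wt highest, led by Nr5a1 at 51.7 ± 10.97 FPKM and Hsd3b1 at 15.6 ± 9.19 FPKM. All 6 genes of peritubular myoid cells (Acta2 at 472.7 ± 262 FPKM, Myl9 at 323 ± 157 FPKM) and all 6 of endothelial cells (Cdh5 at 9.68 ± 3.63 FPKM, Pecam1 at 4.06 ± 1.90 FPKM) were highest in 456wt. All 8 spermatogonial genes were called, 6 with 444wt highest and 2 with 456wt (Uchl1 at 371 ± 53.5 FPKM, Dmrt1 at 144 ± 17.5 FPKM). Round spermatids, which should not exist at this age, were represented by Spaca1 at 2.09 ± 0.369 FPKM and Tnp1 at 0.960 ± 0.590 FPKM, and Prm2 was at 0 in every library.

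The libraries were of like depth. The relative depth, from the steps between low values, was 0.850 to 1.19. For 48 members a fragment could be assigned a value, and it was worth 0.104 to 0.309 FPKM in a library of average depth (median 0.199), so that 1 whole fragment at that depth stands for more than 0.1 FPKM. A lower value can arise where a read is divided among transcripts. For 32 of the 48 silent members this gives an upper limit, from 3 fragments over the 12 libraries together, of 0.0289 to 0.0773 FPKM (median 0.0512), for counting error only. The other silent members have more than 1 transcript or a transcript too short for an estimate, and no limit is given for them. The lowest of the 3 high members, Defb45, was thus more than an order of magnitude above what was detectable for the 32 silent relatives with a limit.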

How the data were processed

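RNA was sequenced by the authors as 100-bp paired-end reads. Alignment was to the NCBI build 37 transcriptome (Bowtie 0.12.9), and reads with at least 2 mismatches were dropped. The authors then obtained FPKM values from RSEM 1.2.8 (fragment length 280 ± 50 bp) and deposited them with 2 decimals for each of 12 libraries. RSEM shares reads among similar transcripts, and a strand setting is not given in the sources used here. The 9 other samples, from Affinity-seq, ChIP-seq and input DNA, were not analysed here.

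Columns were matched to samples by name, and the 3 libraries of a sample number were averaged. Genes were placed with GENCODE M1, and promoters are from RefSeq. The limma fit (lmFit and eBayes with trend, limma 3.58.1, R 4.3.3) used log2(FPKM + 0.1), all 12 libraries, genes averaging 0.1 FPKM or more and Benjamini-Hochberg adjustment. The scripts were tested on simulated data. Fragment values came from the steps between low FPKM of 417 single-transcript genes of 270 to 700 bp. Python 3.11.15, numpy 2.4.6 and pandas 2.3.3 gave the other values.

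The members, gene lists and tests were chosen with earlier results of these data known. The genes named were members of at least 1 FPKM, the 5 highest from 0.1 to under 1 FPKM, members called by the test, the 5 genes most like Defb19, up to 5 highest genes of the 2 defensin-related lists and the 2 highest of each marker list. Others were named after their values were seen, among them Defb2, Defb9, Defb21, Defb37, Defb38, Defb47, the neighbours on chromosome 2 and the genes highest in 456wt. The alternatives were other pseudocounts, filters, scalings and summaries, a replicate block, and leaving out each library or number. The coding sequence of 1 member is not reported here.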

Additional observations from a re-analysis of the deposited data

Results flagged for a closer look

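Of 23 values compared over the 4 sample numbers, 6 had 1 number far from the others by Dixon's criterion, where chance gives about 1.15. In 2 of the 6, the number of genes at or above 1 FPKM and the epididymis median, the other 3 numbers were tied, so that any difference would have met the criterion and the chance figure does not hold. Defb28 was at 0.537 FPKM in 456wt and 0 to 0.0633 FPKM in the others, so that its mean was 0.150 FPKM with 456wt and 0.0211 FPKM without it. The number of defensin genes at or above 1 FPKM was 4 in 343wt and 3 in each other number, and the fourth was Defb42 at 1.09 FPKM. The median of the other antimicrobial proteins was 0.6 FPKM in 456wt and 0.04 to 0.06 FPKM elsewhere. The median of the endothelial list was 5.42 FPKM in 456wt against 1.74 to 2.32 FPKM, and that of the epididymis list 0.0150 FPKM in 456wt against 0. The median of the round spermatid list was 0.230 FPKM in 444wt against 0.0933 to 0.1 FPKM. The causes of these differences were not tested.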

How the results depend on the processing

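The 3 members at or above 1 FPKM stayed 3 in each of the 16 alternatives that left out a library or a sample number, and were 5 when values were rescaled to TPM, which about doubles them (Defb19 1279, Defb36 285, Defb45 16.5). The 9 members at or above 0.1 FPKM became 23 with any value above 0, 3 with a mean of at least 1 FPKM and 17 on the TPM scale, and were 9 to 11 in the leave-out alternatives. Defb19 and Defb36 were called in all 23 alternatives of the limma test. Defb28 was called in all 21 it could enter, but these all kept 456wt, through which alone it is tested, and are no check of its call. Defb45 lost its call in 13 of 23, also with no filter (adjusted p = 0.0603) and without the trend (adjusted p = 0.0804). The number of members called was 2 to 5 in the leave-out alternatives, with 2 without 456wt. The number of other antimicrobial genes called was 4 with a filter at 1 FPKM and 4 to 12 with leave-outs, and that of processing, receptor and signalling genes 5 to 9. Between 186wt and 343wt 1 member was called, 0 without the trend and 1 to 2 with a library left out (2 without the third library of 444wt). Between 444wt and 456wt it was 2, and 1 with the filter at 1 FPKM, where Defb28 is not tested. Of the 5 genes most like Defb19, 2 were kept with a pseudocount of 1, 2 over 12 libraries and 0 to 1 without a sample number. Median-ratio scaling moved libraries by -0.06 to 0.04 on the log2 scale. With the replicate number as a block, the test called 4 members and 11774 genes in place of 12107. The numbers do not pair the samples. Over 14348 genes, the deviations of same-numbered libraries correlated by -0.0648 to 0.128 over 18 pairs, and only 5 of 12 libraries correlated best with their own number.

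The FPKM come without counts, so fragments are estimates and intervals cover counting error only. Several low members rest on few fragments, and RSEM values of near-identical alpha-defensins are uncertain, although nearly all were at 0. The RNA is of whole preparations, so the cells that made a transcript cannot be told apart.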
